A study of Mus musculus with 12 samples.

Results

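The genes described here are 10 genes of the NRF2 antioxidant pathway, out of 54532 genes in the tables. They were chosen by name: the transcription factor Nfe2l2 (NRF2), its inhibitor Keap1, and the target genes Nqo1, Hmox1, Gclc, Gclm, Txnrd1, Srxn1, Slc7a11 and G6pdx. RNA-seq was performed on 12 mammary tumors of female MMTV-Neu mice, with 4 tumors in each of 3 diet groups. Mice were fed a control diet, MSU-42011 or bexarotene, each compound at 100 mg per kg of diet, and per the study's methods the diets started once a tumor measured 4 mm and lasted 10 days. Both compounds activate the retinoid X receptor (RXR), and bexarotene is an RXR agonist in clinical use. All mice carried the neu transgene, driven by the MMTV promoter in mammary epithelium, the control mice included, and the age of the mice is not given in the sources used here. Each library was made from poly(A) RNA of a whole piece of tumor, so tumor cells, macrophages, fibroblasts and vessels were measured together. The comparisons ask whether either RXR agonist moved the antioxidant program of the tumors, and whether the agonists differ from each other at the same dose.

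NRF2 is the main transcriptional switch of the response to oxidants and electrophiles. In resting cells KEAP1 holds NRF2 and hands it to the CUL3 ubiquitin ligase for degradation; when the cysteines of KEAP1 react with an electrophile, NRF2 accumulates, pairs with a small MAF protein and binds antioxidant response elements. Because NRF2 is controlled mostly as a protein, the mRNA of its targets is the usual readout of its activity. BACH1 competes for the same elements, and RXR alpha, the receptor that both compounds bind, is known to bind NRF2 and to restrain it. The targets cover quinone reduction (Nqo1), heme breakdown (Hmox1), glutathione synthesis (Gclc, Gclm, and Slc7a11 for cystine import), the thioredoxin and peroxiredoxin systems (Txnrd1, Srxn1) and NADPH supply (G6pdx).

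The element to which NRF2 binds has the core TGACNNNGC, and the promoter windows of the members were searched for it on both strands, where the other strand reads GCNNNGTCA. RefSeq windows of 300 bases on GRCm38.p6, from 250 bases before a transcript start, were at hand for 8 of the 10 genes, all but Hmox1 and Gclc, and 5 of the 8 held a match. Among all genes with a window, 14.0% of 27025, and 12.4% of all 32851 windows, held one. The matches are shown because these are the letters that NRF2 is known to read, and a match describes the sequence only. Each is printed 5′ to 3′ on the strand of the gene, with 10 bases on either side and the match in capitals.
Nfe2l2: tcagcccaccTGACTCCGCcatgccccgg
Gclm: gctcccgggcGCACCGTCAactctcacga
Txnrd1: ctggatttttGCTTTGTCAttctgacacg
Srxn1: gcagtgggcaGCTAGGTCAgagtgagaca
G6pdx: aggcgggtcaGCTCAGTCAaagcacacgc
The stretch of Nfe2l2 lies at chr2:75704885-75704913 on the minus strand, and its match starts 240 bases before the transcript start. That of Gclm lies at chr3:122245413-122245441 on the plus strand, 134 bases before the start. The stretch of Txnrd1, in 1 of its 3 windows, lies at chr10:82859104-82859132 on the plus strand, 92 bases before the start. That of Srxn1 lies at chr2:152105542-152105570 on the plus strand, 28 bases after the start, and that of G6pdx at chrX:74428919-74428947 on the minus strand, 57 bases before it. The windows of Keap1, Nqo1 and Slc7a11 held no match, which says only that these letters are not within them. None of the 5 matches overlapped an AP-1 site (TGACTCA or TGAGTCA).

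The total count per tumor was between 16583413 and 25925027, and the groups' medians were between 17812492 and 20489200. All 10 genes passed the filter on low counts, as 15504 genes did in all. Bexarotene 1 stood apart from the other 11 tumors: its median correlation with them was 0.922, against 0.970 or more for every other tumor. Its summed macrophage markers were 1581 CPM (counts scaled to the library size) against at most 491.6 elsewhere, its summed fibroblast markers 10317 CPM, and its epithelial markers the lowest of all, at 2683 CPM. The epithelial markers Epcam, Cdh1, Krt8, Krt18 and Erbb2 were high in every tumor, whereas Krt19 was at 1.96 CPM or less in all but bexarotene 1. T cell, B cell and neutrophil marker sums were at most 10.9 CPM. The values that bexarotene 1 moves most are given with and without it. No source ties tumors to batches, so no value within batches can be given.

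For none of the 10 genes did a difference between the diets pass the test. Among the 3 groups, 0 of 10 genes passed an adjusted p of 0.05 in edgeR's quasi-likelihood F test with Benjamini-Hochberg adjustment, where the background over all 15504 genes was also 0%. At an unadjusted p under 0.05 the count was 0 of 10 against 4.24% of all genes. With MSU-42011 relative to control, 0 of 10 passed the adjusted threshold (background 0%) and 0 of 10 the unadjusted one (1.99%). With bexarotene relative to control, 0 of 10 passed the adjusted threshold (background 0%), and 1 of 10, Nqo1, the unadjusted one (6.44%). Between the agonists the counts were 0 of 10 (background 0%) and 0 of 10 (3.95%). DESeq2 called 1, 6 and 25 genes in these comparisons, in the same order, and 5 among the 3 groups, with no member among them. In none of the 10 genes did the 4 tumors of a group lie wholly above or below those of another group, against a background of 1.97% of genes when the control group was set against MSU-42011, 2.03% when it was set against bexarotene, and 1.17% between the agonists.

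How much change the data leave room for can be read from the 95% intervals. In each comparison the interval of 7 of the 10 genes lay within a 2-fold change either way, while 69.4% of all genes did so with MSU-42011 relative to control, 67.7% with bexarotene relative to control, and 68.8% between the agonists. The 3 genes with wider intervals were the same in each comparison, namely Nqo1, Hmox1 and Slc7a11. With MSU-42011, 5 genes were higher and 5 lower than in controls, with a median log2 fold change of -0.023 against 0.0016 over all genes. With bexarotene 3 were higher and 7 lower, with a median of -0.052 against 0.030. Between the agonists 6 were higher and 4 lower in the MSU-42011 tumors, with a median of 0.061 against -0.024. Without bexarotene 1 the counts were 5, 3 and 7 higher, and the medians -0.023, -0.11 and 0.045. Over all genes in that fit the medians were 0.0014, 0.0062 and -0.00011.

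**Figure D1:**
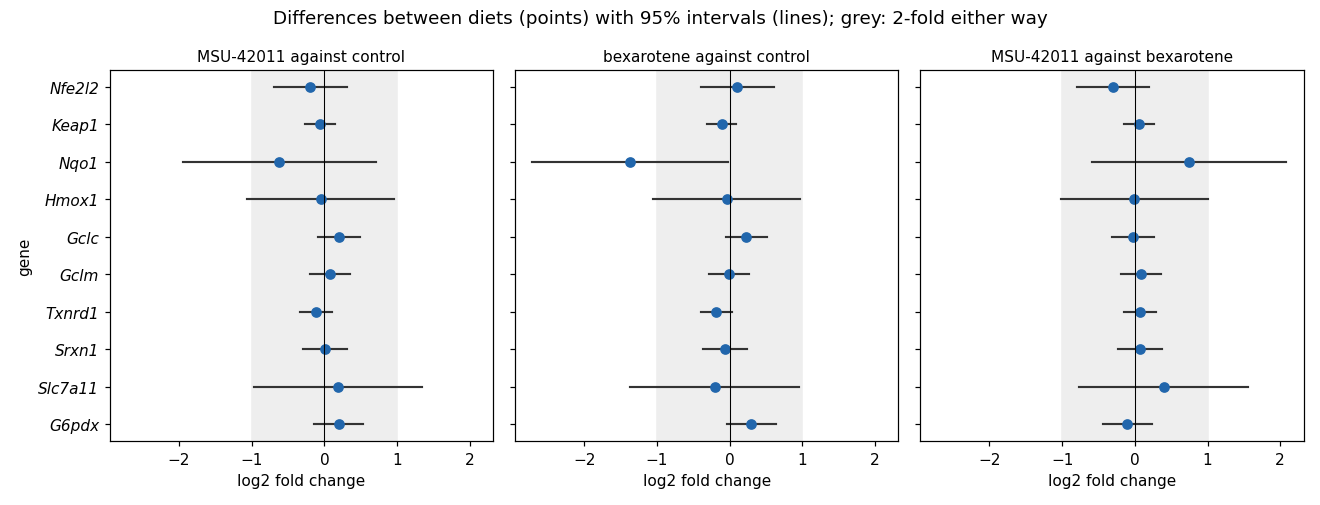
Log2 fold change (horizontal axis) of the 10 genes in the 3 comparisons, with points for the edgeR estimate and lines for its 95% interval. The grey band marks a 2-fold change either way, which holds the whole interval of 7 of the 10 genes in each panel but not that of Nqo1, Hmox1 or Slc7a11.

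Nfe2l2 (ENSMUSG00000015839, chr2:75675513-75704641 on GRCm38) codes for NRF2 itself. Its level was 47.4, 45.3, 37.2 and 40.03 normalized CPM in control tumors 1 to 4, then 35.6, 31.9, 47.7 and 33.5 in MSU-42011 tumors, and 71.2, 39.1, 43.0 and 29.4 in bexarotene tumors. The highest and the lowest of the 12 values were both in the bexarotene group, and the groups overlapped. Its log2 fold change was -0.19 (SE 0.23) for MSU-42011 and 0.11 (SE 0.23) for bexarotene against control, and without bexarotene 1 the latter was -0.19. Bulk RNA cannot tell apart fewer cells of a type from less RNA per cell, which holds for all genes here.

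Across the 12 tumors Nfe2l2 was higher where macrophage markers were higher. Its log2 level correlated with the log2 summed CPM of 8 macrophage markers (Cd68, Adgre1, Csf1r, C1qa, C1qb, C1qc, Cd163 and Mrc1) with Pearson's r = 0.93 (permutation p = 0.00012, Benjamini-Hochberg adjusted p = 0.0048 over the 40 relations of a member with a marker sum). Spearman's rho was 0.88 (permutation p = 0.00039, adjusted p = 0.0156). The share of all genes that follow the macrophage sum as closely was not computed. The relation was also seen without bexarotene 1: r was 0.82 over the other 11 tumors and 0.77 without bexarotene 1 and MSU-42011 3, the 2 tumors farthest from the median. The marker sums were 178 to 466 CPM in control tumors, 195 to 492 in MSU-42011 tumors and 212 to 1581 in bexarotene tumors, and Cd163 was at 0 in 2 tumors. None of the other 39 relations reached an adjusted p of 0.05, and those with an unadjusted permutation p under 0.05 by r or rho were the 4 that follow. For Gclm against the macrophage sum r was -0.66 (permutation p = 0.020, adjusted p = 0.197, rho = -0.40, permutation p = 0.20) and -0.35 without bexarotene 1. Nfe2l2 against the fibroblast sum gave r = 0.74 (permutation p = 0.018, adjusted p = 0.197, rho = 0.51, permutation p = 0.093), but 0.26 without bexarotene 1. Gclc against the epithelial sum gave r = -0.63 (permutation p = 0.0176, adjusted p = 0.197, rho = -0.76, permutation p = 0.00655, adjusted p = 0.117), and -0.65 without bexarotene 1. Keap1 against the fibroblast sum gave r = -0.47 (permutation p = 0.124, adjusted p = 0.497, rho = -0.73, permutation p = 0.00878, adjusted p = 0.117), and -0.79 without bexarotene 1. Hmox1, which macrophages are known to express, gave r = 0.19 with the macrophage sum (permutation p = 0.54, adjusted p = 0.85, r = 0.15 without the 2 farthest tumors, rho = 0.26, permutation p = 0.42). Nqo1 against the macrophage sum gave r = 0.26 (permutation p = 0.393, adjusted p = 0.847, rho = 0.48, permutation p = 0.122), but 0.75 without bexarotene 1 and 0.69 without bexarotene 1 and MSU-42011 3. The relations covered the epithelial, macrophage, fibroblast and red blood cell sums, and the other marker lists were not correlated. The neutrophil and endothelial sums were also highest in bexarotene 1 (10.9 and 331 CPM) and MSU-42011 3 (7.64 and 166 CPM). These tumors had the highest Nfe2l2, so the relation is not shown to be particular to macrophages. The part of macrophages in the level of Nfe2l2 was not tested.

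**Figure D2:**
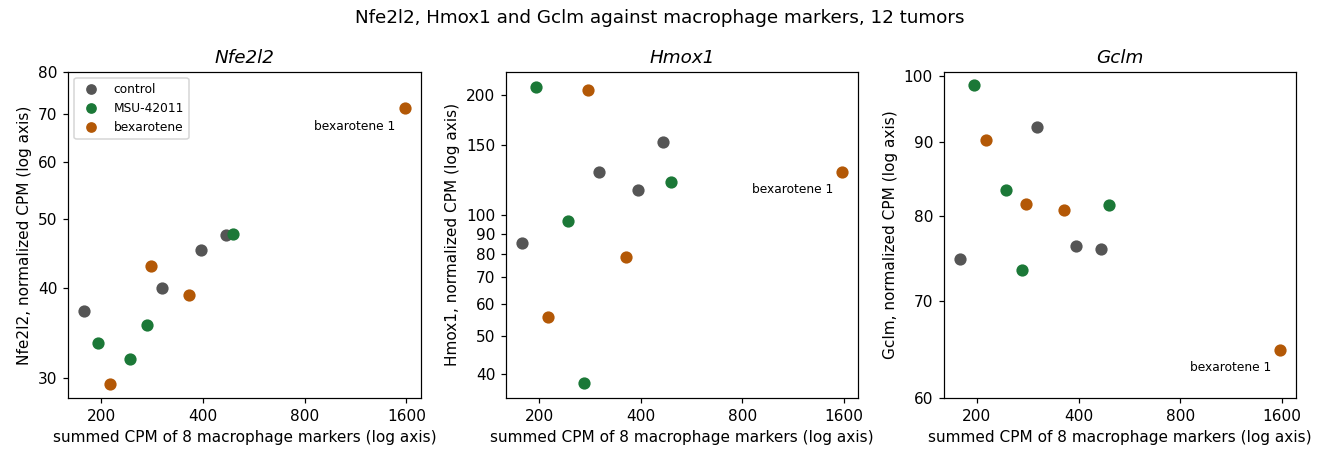
Normalized CPM of Nfe2l2, Hmox1 and Gclm (vertical log axes) against the summed CPM of 8 macrophage markers (horizontal log axis), 1 point per tumor, colored by diet. The Nfe2l2 points climb with the marker sum in all 3 diets (r = 0.93), while the Hmox1 points scatter (r = 0.19).

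Keap1 (ENSMUSG00000003308, chr9:21229730-21239361) codes for the adaptor that marks NRF2 for degradation, and it was the steadiest of the 10 genes. Its level was 61.4, 69.97, 76.01 and 70.5 CPM in control tumors, 66.8, 70.9, 66.5 and 63.2 in MSU-42011 tumors, and 65.1, 57.5, 64.1 and 70.6 in bexarotene tumors. The groups overlapped throughout, and the highest tumor exceeded the lowest by 1.32-fold. Its log2 fold change was -0.056 (95% interval -0.26 to 0.15) with MSU-42011 and -0.11 (-0.32 to 0.094) with bexarotene, and on the FPKM scale the former was 0.0090, of the other sign. An antisense gene, Gm16754, overlaps Keap1 and had 5.16% of its count, and since the strand setting of the counting is not given, reads of the pair may not be separated.

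The other regulators on the list, 11 in all and all tested, likewise showed 0 calls in edgeR in each comparison and 0 at an unadjusted p under 0.05. With MSU-42011 3 were higher and 8 lower (median log2 fold change -0.078), and with bexarotene 6 were higher and 5 lower (median 0.024), or 4 and 7 without bexarotene 1 (median -0.084). Bach1, which competes with NRF2, was at 20.5 ± 2.5 CPM in controls (SD, n = 4), 20.5 ± 3.2 with MSU-42011 and 24.3 ± 11.5 with bexarotene. Its highest value, 40.5 CPM, was in bexarotene 1, and without that tumor the log2 fold change of bexarotene against control went from 0.24 to -0.12. Mafg, a small MAF partner, was at 98.5 CPM in controls, 88.5 with MSU-42011 and 105.5 with bexarotene, and Mafk at 49.1, 41.9 and 44.1 CPM.

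Rxra, the gene of the receptor itself, was at 80.8, 118, 81.1 and 84.2 CPM in control tumors, 72.8, 74.5, 126 and 70.8 in MSU-42011 tumors, and 103, 58.6, 73.0 and 64.4 in bexarotene tumors. Control 2 and MSU-42011 3 stood well above the others of their groups. Against control the log2 fold change of Rxra was -0.082 (SE 0.22) with MSU-42011 and -0.28 (SE 0.22) with bexarotene, and neither passed an unadjusted p of 0.05 over all tumors. Without bexarotene 1 the latter was -0.48, and edgeR did not call Rxra. It was the 1 regulator with an unadjusted p under 0.05 for bexarotene in that fit, where 523 of 15619 genes passed.

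Nqo1 (ENSMUSG00000003849, chr8:107388225-107403206) codes for the quinone reductase that is widely used as a marker of NRF2 activity, and it varied most of the 10 genes within the diet groups. Its level was 27.3, 68.1, 7.70 and 10.04 CPM in control tumors, 11.1, 12.7, 38.03 and 11.8 in MSU-42011 tumors, and 10.1, 10.97, 13.1 and 9.69 in bexarotene tumors. Control 2, MSU-42011 3 and control 1 were high, and the other 9 tumors lay together between 7.70 and 13.1 CPM, whatever their diet. The highest tumor exceeded the lowest, also a control, by 8.85-fold. The bexarotene group held no high tumor, and its values lay within the range of the controls.

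The log2 fold change of Nqo1 was -1.37 (SE 0.62, 95% interval -2.71 to -0.020) for bexarotene against control, with an unadjusted p of 0.0472 and an adjusted p of 0.771 in edgeR's quasi-likelihood test with Benjamini-Hochberg adjustment. By exact permutation of the 8 tumors (two-sided), which cannot give a p below 0.0286, p was 0.40. Control 2 alone decided the size: without it the log2 fold change was -0.46, against -1.38 without control 1. For MSU-42011 against control the log2 fold change was -0.62 (SE 0.61, adjusted p = 0.9999 in edgeR), which turned to 0.29 without control 2 and went to -1.26 without MSU-42011 3. Between the agonists it was 0.74 (SE 0.61), and 0.11 without MSU-42011 3.

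**Figure D3:**
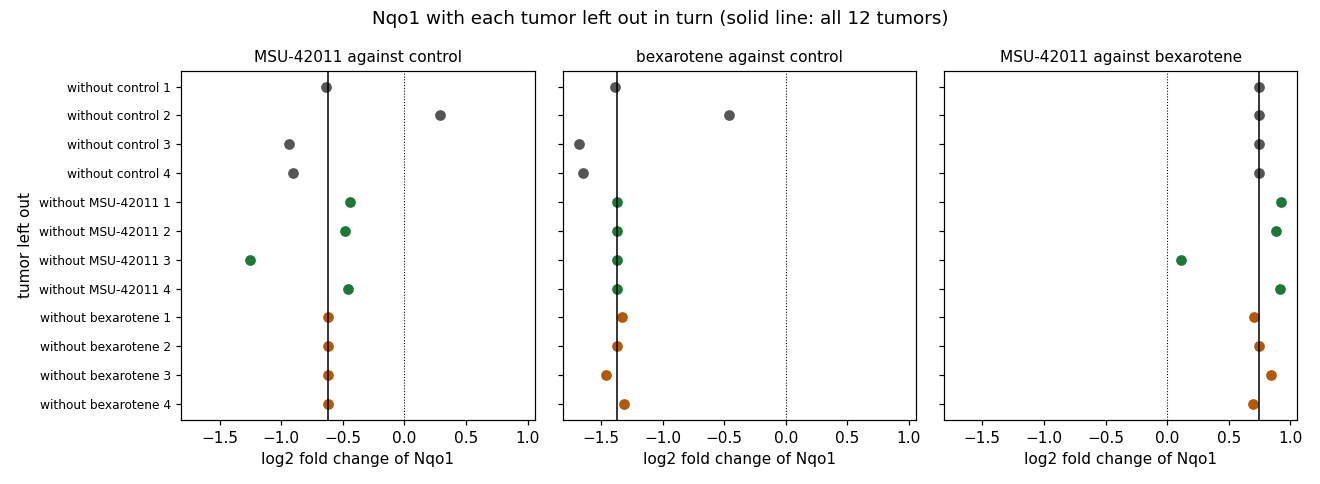
Log2 fold change of Nqo1 (horizontal axis) in each comparison with 1 tumor left out in turn (vertical axis), colored by the diet of the tumor left out, beside the value over all 12 tumors (solid line). Leaving out control 2 moves bexarotene against control from -1.37 to -0.46 and MSU-42011 against control from -0.62 to 0.29.

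The genes whose levels over the 12 tumors were most like that of Nqo1 were Ift81, an intraflagellar transport gene (r = 0.933), Gpr179, an orphan receptor gene (r = 0.931), and Abhd4, a lipase gene (r = 0.930). They were picked as the highest of all tested genes, so these values are descriptions. Without control 2 and MSU-42011 3 the r values were 0.844, 0.745 and 0.899. Ift81 was at 26.1 CPM in control 2, 25.1 in MSU-42011 3 and 24.3 in control 1, against 19.2 to 22.3 in the other 9 tumors. Abhd4 was at 151, 128 and 134 CPM in those 3 tumors, and Gpr179 at 3.60, 2.11 and 1.90 CPM. No comparison of diets was called for these genes either: for bexarotene against control the log2 fold changes were -0.19 (SE 0.13) for Ift81, -0.89 (SE 0.48) for Gpr179 and -0.17 (SE 0.14) for Abhd4.

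Hmox1 (ENSMUSG00000005413, chr8:75093621-75100589) codes for heme oxygenase 1, which opens the heme ring. Its level was 153, 116, 85.4 and 129 CPM in control tumors, 38.1, 96.5, 121 and 210 in MSU-42011 tumors, and 129, 78.8, 206 and 55.7 in bexarotene tumors. Both agonist groups spread beyond the controls at either end, with group means of 121 ± 28 (SD, n = 4), 116 ± 71 and 117 ± 66 CPM. The log2 fold changes were accordingly small, -0.050 (SE 0.46) for MSU-42011 and -0.041 (SE 0.46) for bexarotene, with intervals of -1.06 to 0.96 and -1.05 to 0.97. The sign of these values turned with single tumors: without MSU-42011 4 and without MSU-42011 1 the former was -0.50 and 0.24. The unequal spread of the groups was not tested.

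Among the 8 other genes of heme and iron handling, edgeR called 0 in each comparison, and 2 had an unadjusted p under 0.05 with bexarotene, both of them lower than in controls, where 6.44% of all genes passed. Fth1, the ferritin heavy chain and itself a known NRF2 target, was at 1334, 2454, 918 and 942 CPM in control tumors, 1092, 723, 1070 and 1084 in MSU-42011 tumors, and 936, 910, 844 and 859 in bexarotene tumors. Control 2 and control 1, high for Nqo1, were also the highest for Fth1, whereas MSU-42011 3 was not. Against control, Fth1 had a log2 fold change of -0.67 with bexarotene (SE 0.28, unadjusted p = 0.033, adjusted p = 0.762 in edgeR with Benjamini-Hochberg adjustment), which was -0.27 without control 2. Hmox2, the constitutive heme oxygenase, was at 39.2 CPM in controls and 31.7 with bexarotene, a log2 fold change of -0.31 (SE 0.11, unadjusted p = 0.017, adjusted p = 0.762 in edgeR). The exact permutation p with bexarotene was 0.0571 for Fth1 and also for Hmox2.

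Gclc and Gclm code for the catalytic and the modifier subunit of glutamate-cysteine ligase, the rate-limiting enzyme of glutathione synthesis. Gclc (ENSMUSG00000032350, chr9:77754535-77794485) was at 22.9, 21.3, 24.1 and 28.9 CPM in control tumors, 26.8, 28.5, 26 and 30.4 in MSU-42011 tumors, and 31.0, 30.6, 22.9 and 29.4 in bexarotene tumors. Of the controls, only control 4 reached the range of the MSU-42011 group. For Gclc the log2 fold change was 0.20 (SE 0.13, adjusted p = 0.9999, edgeR) for MSU-42011 and 0.23 (SE 0.13, adjusted p = 0.851, edgeR) for bexarotene, and the exact permutation p values were 0.114 and 0.143.

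Gclm (ENSMUSG00000028124, chr3:122245557-122270732) was at 76.0, 76.4, 74.8 and 92.2 CPM in control tumors, 73.5, 83.4, 81.5 and 98.5 in MSU-42011 tumors, and 64.8, 80.9, 81.7 and 90.2 in bexarotene tumors. In each group replicate 4 was the highest, but the labels do not pair tumors by replicate number. For Gclm the log2 fold change was 0.077 (95% interval -0.20 to 0.35) with MSU-42011 and -0.0091 (-0.28 to 0.26) with bexarotene, the latter 0.027 on the FPKM scale and 0.077 without bexarotene 1. Over the 12 tumors Gclc and Gclm gave r = 0.27 (permutation p = 0.40, adjusted p = 0.70, rho = 0.17, permutation p = 0.61), and r was 0.27 without control 2 and bexarotene 3. Bexarotene 1 had the highest Gclc and the lowest Gclm of all tumors, and without it r was 0.66.

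Slc7a11 (ENSMUSG00000027737, chr3:49892526-50443614) codes for xCT, the transporter that brings in cystine for glutathione. It was scarcely expressed, with 4 to 57 reads per tumor, and 3 reads, the floor used here, equal 0.111 to 0.184 CPM. Its level was 1.19, 1.56, 1.18 and 0.862 CPM in control tumors, 0.935, 0.788, 1.3 and 2.39 in MSU-42011 tumors, and 1.25, 0.668, 1.94 and 0.245 in bexarotene tumors. The groups overlapped, and MSU-42011 4 and bexarotene 3, the highest for Slc7a11, were also the highest for Hmox1. Slc7a11 had a log2 fold change of 0.19 (95% interval -0.97 to 1.35) with MSU-42011 and -0.21 (-1.37 to 0.96) with bexarotene, so that a 2-fold change in at least 1 direction was within the interval in either comparison.

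The list of other glutathione genes held 11, of which 10 were tested and 0 were called by edgeR in each comparison. Gpx3, an extracellular glutathione peroxidase, passed the unadjusted threshold for bexarotene against control, with 42.4, 19.6, 10.8 and 22.3 CPM in control tumors and 649, 102, 23.0 and 12.6 in bexarotene tumors. Bexarotene 1 and bexarotene 2, which also had the highest fibroblast sums, held the high values, and the other bexarotene tumors lay within the control range. Over all tumors the log2 fold change was 3.05 (SE 1.03, adjusted p = 0.762, edgeR, exact permutation p = 0.257), and it was 0.96 without bexarotene 1. Gsr, the glutathione reductase, was at 38.6 CPM in controls, 32.1 with MSU-42011 and 32.8 with bexarotene (log2 fold changes -0.27 and -0.23, SE 0.13 for each).

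Txnrd1 (ENSMUSG00000020250, chr10:82833951-82897712) codes for cytosolic thioredoxin reductase. Its level was 144, 157, 155 and 156 CPM in control tumors, 140, 129, 149 and 146 in MSU-42011 tumors, and 130, 115, 152 and 142 in bexarotene tumors. The groups overlapped only through control 1 and the highest tumors of the agonist groups. Txnrd1 had a log2 fold change of -0.11 (SE 0.099, adjusted p = 0.9999, edgeR) with MSU-42011 and -0.18 (SE 0.099, adjusted p = 0.83, edgeR) with bexarotene, and the exact permutation p values were 0.0857 and 0.0571. The intervals were -0.33 to 0.10 and -0.40 to 0.032.

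Srxn1 (ENSMUSG00000032802, chr2:152105516-152111376) codes for sulfiredoxin, which repairs overoxidized peroxiredoxins. Its level was 35.7, 25.3, 29.5 and 27.1 CPM in control tumors, 25.0, 27.9, 32.9 and 31.9 in MSU-42011 tumors, and 30.3, 23.6, 28.8 and 29.8 in bexarotene tumors. The groups overlapped over nearly their whole range. Srxn1 had a log2 fold change of 0.0034 (95% interval -0.30 to 0.30) with MSU-42011 and -0.063 (-0.36 to 0.24) with bexarotene.

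In the wider thioredoxin list of 12 genes edgeR called 0, and 1 passed an unadjusted p under 0.05 for MSU-42011 against control. This was Txnip, which codes for an inhibitor of thioredoxin that also restrains glucose uptake. It was at 632, 754, 542 and 612 CPM in control tumors, 1038, 980, 802 and 768 in MSU-42011 tumors, and 694, 645, 762 and 697 in bexarotene tumors. All 4 MSU-42011 tumors lay above all control and all bexarotene tumors, a separation that 1.97% and 1.17% of all genes showed in either direction. The log2 fold change was 0.50 (SE 0.14) against control (unadjusted p = 0.0037, adjusted p = 0.9999 in edgeR with Benjamini-Hochberg adjustment, exact permutation p = 0.0286, the smallest that 4 tumors against 4 can give) and 0.36 (SE 0.14) against bexarotene (adjusted p = 0.997, edgeR). Txnip and Prdx5, a peroxiredoxin, were named for the smallest p among the 3 groups in this list, so their values are descriptions. Prdx5 was at 137, 114 and 126 CPM in control, MSU-42011 and bexarotene tumors.

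G6pdx (ENSMUSG00000031400, chrX:74409483-74429194) codes for glucose-6-phosphate dehydrogenase, the first enzyme of the pentose phosphate pathway and a main source of NADPH. Its level was 89.7, 67.4, 82.0 and 85.4 CPM in control tumors, 93.1, 79.2, 86.1 and 113 in MSU-42011 tumors, and 90.7, 107, 78.5 and 123 in bexarotene tumors. The tumors above all controls were 2 of the MSU-42011 and 3 of the bexarotene group. The log2 fold change was 0.20 (SE 0.16, adjusted p = 0.9999, edgeR) and 0.30 (SE 0.16, adjusted p = 0.818, edgeR), with intervals of -0.14 to 0.54 and -0.039 to 0.64. Ikbkg overlaps G6pdx on the other strand and had 57.3% of its count, so a share of reads may be assigned to either gene if the counting did not use strand. The retrogene copy G6pd2 had 0 reads.

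None of the 7 other genes of NADPH supply was called by edgeR or passed an unadjusted p under 0.05 in any comparison over all tumors. With bexarotene 4 were higher and 3 lower than in controls (median log2 fold change 0.055), or 6 and 1 without bexarotene 1 (median 0.16). Pgd, the third enzyme of the same pathway, was at 210 CPM in controls, 181 with MSU-42011 and 201 with bexarotene. H6pd, the counterpart of G6pdx in the endoplasmic reticulum, was at 47.9, 49.8 and 61.6 CPM, and its log2 fold change with bexarotene was 0.36 over all tumors and 0.19 without bexarotene 1.

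**Figure D4:**
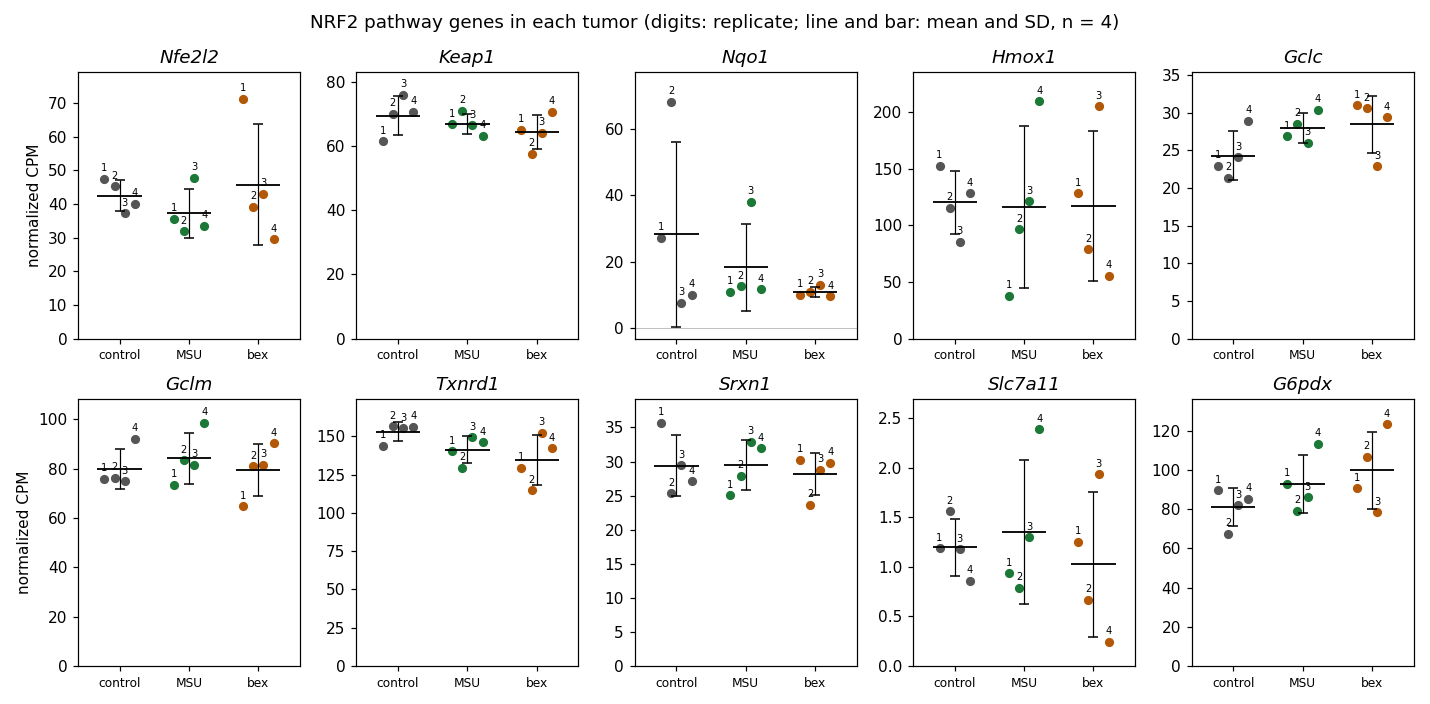
Normalized CPM (vertical axes, linear, 1 scale per gene) of the 10 genes in each tumor, by diet (control, MSU for MSU-42011, bex for bexarotene), with the group mean as a line, the SD as a bar and the replicate number above each point. The points of the 3 diets overlap in every panel, and the high Nqo1 points are control 2 at 68.1, MSU-42011 3 at 38.03 and control 1 at 27.3 CPM.

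The 10 genes fell into steady and variable ones. The SD of log2 CPM within the groups was 0.11 for Keap1 and 0.12 for Txnrd1, and only 3.24% and 5.07% of all tested genes had a smaller one. Gclc, Gclm, Srxn1 and G6pdx followed, with SDs of 0.17, 0.17, 0.19 and 0.23, below the median of all genes of 0.29. Nfe2l2 was at 0.35, Slc7a11 at 0.54, Hmox1 at 0.78 and Nqo1 at 0.95, and 92.6% and 95.6% of all genes varied less than the last of these, Hmox1 and Nqo1.

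Over all 12 tumors no pair of members was correlated past the adjusted threshold. Over the 45 pairs of members, 23 correlations of log2 CPM were positive and 22 negative, with a median r of 0.022. At a Benjamini-Hochberg adjusted permutation p under 0.05 there was no pair, and at an unadjusted p under 0.05 there were 5. The share over pairs of all genes was not computed. These counts therefore do not tell whether the members varied together more or less than other genes. The largest was Hmox1 with Slc7a11 (r = 0.74, permutation p = 0.00695, adjusted p = 0.197, rho = 0.75, permutation p = 0.0072), where r was 0.81 without the 2 tumors farthest from the median of Hmox1. Gclc with G6pdx gave r = 0.70 (permutation p = 0.0113, adjusted p = 0.197, rho = 0.73, permutation p = 0.0096), and 0.49 without 2 tumors. The other 3 were negative: Nfe2l2 with Gclm (r = -0.69, -0.33 without 2 tumors, permutation p = 0.0131), Nqo1 with Gclc (r = -0.62, -0.44 without 2 tumors, permutation p = 0.0248) and Gclc with Txnrd1 (r = -0.61, -0.50 without 2 tumors, permutation p = 0.0310). Their rho values were -0.48, -0.57 and -0.64 (permutation p = 0.115, 0.0581 and 0.0310), and their adjusted p values 0.197, 0.279 and 0.279. Bexarotene 1 moved some pairs of Nfe2l2. With Nqo1, r was 0.31 over all tumors (permutation p = 0.32) and 0.69 without bexarotene 1. With Gclc, r was -0.14 (permutation p = 0.68) and -0.67 without it. The values without bexarotene 1 were not tested.

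**Figure D5:**
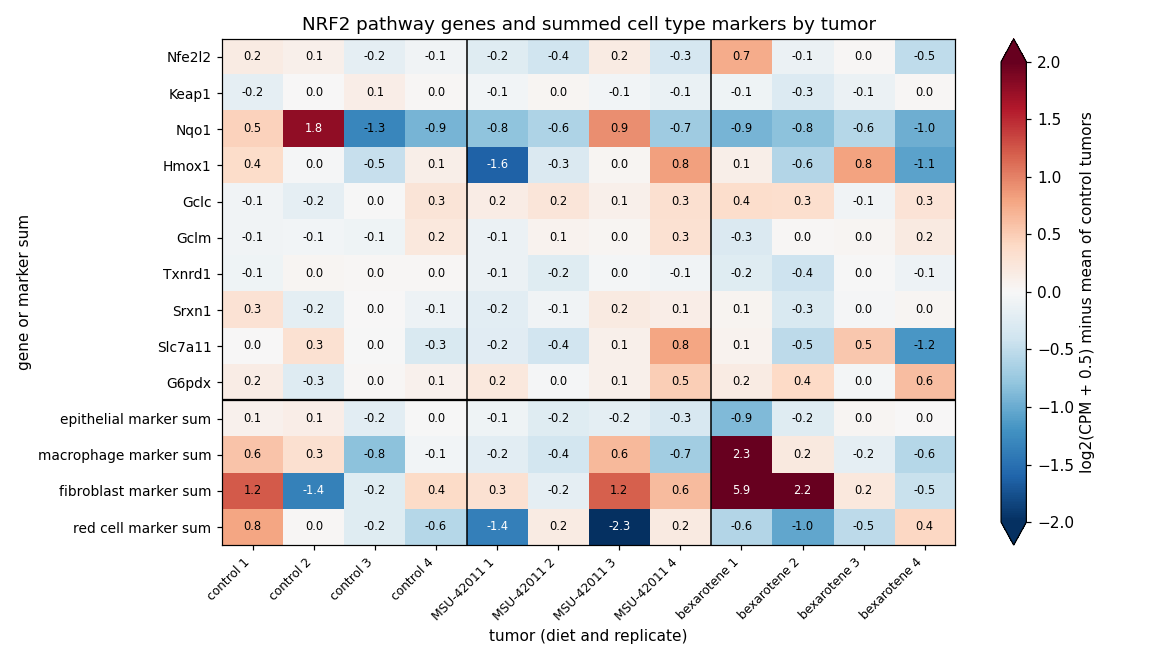
Log2(CPM + 0.5) of the 10 genes (upper rows) and of 4 summed marker lists (lower rows) in each of the 12 tumors, minus the mean of the control tumors, with red for higher and blue for lower values. The Nqo1 row is red in control 1, control 2 and MSU-42011 3, and bexarotene 1 combines the highest Nfe2l2 with the highest macrophage and fibroblast sums.

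Levels of different genes were compared per length, in FPKM, fragments scaled to library size and gene length, from the authors' table. Hmox1 was the most abundant, at 101 FPKM on average over the 12 tumors, followed by G6pdx at 72.5, Txnrd1 at 62.8, Gclm at 56.1, Keap1 at 26.9, Srxn1 at 23.9, Nfe2l2 at 21.4, Gclc at 17.1, Nqo1 at 12.3 and Slc7a11 at 0.334. The ranges of neighbors in this order overlapped, except that every tumor had more Gclm than the highest tumor had Keap1 (46.9 against 30.9 FPKM), and more Nqo1 than the highest had Slc7a11 (5.0 against 0.679 FPKM). The authors' values use a length shorter than the listed gene length for all of the 10 genes but Nqo1. With the listed length Keap1, at 14.2 FPKM, came before Gclm, at 12.9, and Nqo1, at 12.3, before Nfe2l2, at 11.04, and Hmox1 stayed first at 67.6.

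Beyond the members, 95 genes of the wider pathway were listed, 87 of which were tested, and edgeR called 0 of them in any comparison. At an unadjusted p under 0.05 the control group and MSU-42011 differed in 3, the control group and bexarotene in 6, and the agonists in 4 of the 87, where the shares over all genes were 1.99%, 6.44% and 3.95%. With MSU-42011 27 were higher and 60 lower than in controls, with a median log2 fold change of -0.085, where 50.3% of all genes were higher. With bexarotene 44 were higher and 43 lower, with a median of 0.024, where 55.3% of all genes were higher. Between the agonists 26 were higher and 61 lower with MSU-42011, with a median of -0.075, where 45.1% of all genes were higher. Without bexarotene 1, a fit chosen after seeing the data, the split with MSU-42011 was again 27 to 60, that with bexarotene became 52 higher to 35 lower, and that between the agonists 23 to 64. In that fit 50.3%, 51.1% and 49.97% of all genes were higher, in the same order. EdgeR again called 0 of these genes in each, and 4, 6 and 4 of the 87 had an unadjusted p under 0.05. Over all genes in that fit, 411, 523 and 479 of 15619 had one.

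Glutathione S-transferases, which join glutathione to electrophiles, were 17, of which 13 were tested. With MSU-42011 2 were higher and 11 lower (median log2 fold change -0.14), and with bexarotene 6 were higher and 7 lower (median -0.015), or 9 and 4 without bexarotene 1 (median 0.082). Gstm2 passed the unadjusted threshold for bexarotene against control, at 2.43, 1.47, 1.66 and 1.25 CPM in control tumors and 37.5, 6.30, 1.74 and 2.02 in bexarotene tumors. As for Gpx3, bexarotene 1 and bexarotene 2 held the high values. The log2 fold change of 2.81 (SE 0.83, adjusted p = 0.762, edgeR, exact permutation p = 0.143) became 0.99 without bexarotene 1. Gsto1 was at 18.2 CPM in controls, 14.3 with MSU-42011 and 19.0 with bexarotene.

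Other detoxification enzymes and pumps were 16, of which 13 were tested, with 9 higher and 4 lower with MSU-42011 (median log2 fold change 0.080) and 10 higher and 3 lower with bexarotene (median 0.21), or 9 and 4 without bexarotene 1 (median 0.11). Akr1b8, an aldo-keto reductase, and Abcc4, an export pump, passed the unadjusted threshold for bexarotene against control. Both were highest in bexarotene 1, at 23.0 and 6.38 CPM, against at most 5.77 and 2.11 CPM in any other tumor. Their log2 fold changes of 1.74 and 1.41 (adjusted p = 0.762 for each, edgeR) became 0.52 and 0.42 without that tumor. The exact permutation p values over all tumors were 0.2 and 0.0857. The part of the stromal cells in these values was not tested.

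Of the 4 superoxide and peroxide enzymes, extracellular superoxide dismutase, Sod3, passed the unadjusted threshold for MSU-42011 against control. It was at 186, 57.1, 159 and 129 CPM in control tumors, 320, 93.6, 351 and 289 in MSU-42011 tumors and 211, 193, 139 and 266 in bexarotene tumors. All but MSU-42011 2 of the MSU-42011 tumors lay above the controls (log2 fold change 0.99, SE 0.41, unadjusted p = 0.0308, adjusted p = 0.9999 in edgeR, exact permutation p = 0.143). Mitochondrial Sod2 was at 154, 149 and 167 CPM in control, MSU-42011 and bexarotene tumors.

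The ATF4 stress response shares Slc7a11 and other targets with NRF2. Its 9 listed genes were all lower with MSU-42011 than in controls, by 0.012 to 0.40 on the log2 scale (median -0.12). Of all genes 50.3% were higher in that comparison, and edgeR called 0 of the 9. With bexarotene 4 were higher and 5 lower (median -0.034), or 5 and 4 without bexarotene 1 (median 0.042). Trib3, a pseudokinase gene induced by ATF4, was at 87.8, 102, 105 and 97.6 CPM in control tumors and 86.2, 67.2, 76.5 and 73.5 in MSU-42011 tumors. All 4 MSU-42011 tumors lay below all controls, if only just for MSU-42011 1 (log2 fold change -0.37, SE 0.17, unadjusted p = 0.0464, adjusted p = 0.9999 in edgeR, exact permutation p = 0.0286). Such a separation, in either direction, was seen in 1.97% of all genes. Trib3 and Psat1, an enzyme of serine synthesis, were likewise named for the smallest p among the 3 groups, so their values are descriptions. Psat1 was at 47.3, 39.5 and 35.1 CPM in control, MSU-42011 and bexarotene tumors.

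The 2 RXR agonists were fed at the same dose and time, and 1 pair of compounds was compared, with p-values adjusted over all 15504 genes. For the 10 members the log2 fold change of MSU-42011 against bexarotene was between -0.30 (Nfe2l2, 95% interval -0.80 to 0.20) and 0.74 (Nqo1, -0.59 to 2.08), and the smallest adjusted p was 0.997 in edgeR's quasi-likelihood test. The value of Nfe2l2 rested on bexarotene 1, without which it was -0.0016, and that of Nqo1 on MSU-42011 3, as given above. Narrow intervals were found for Keap1 (0.056, -0.15 to 0.26), Txnrd1 (0.069, -0.15 to 0.29), Gclm (0.086, -0.19 to 0.36, and -0.00011 without bexarotene 1) and Gclc (-0.026, -0.31 to 0.26). G6pdx was at -0.10 (-0.44 to 0.24) and Srxn1 at 0.066 (-0.23 to 0.37). For Hmox1 (-0.0090, -1.02 to 1.00) and Slc7a11 (0.39, -0.77 to 1.56) a 2-fold difference in at least 1 direction remained within the interval. At an unadjusted p under 0.05 the wider lists held Txnip (higher with MSU-42011), Gstm2 and Gpx3 (lower with MSU-42011, -0.84 and -1.18 without bexarotene 1, against -2.67 and -3.27 with it), and Ftl1, which is outside the rule for named genes and was added after its value was seen.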

How the data were processed

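RNA-seq values of 12 tumors were analysed. Per the labels, poly(A) libraries were made from 1 ug of total RNA; the submitters' processing notes name STAR 2.6.1d, featureCounts 1.5.0-p3 and DESeq2. The authors deposited raw read counts per gene (whole numbers, not normalized) and FPKM (counts divided by the tumor's total and a gene length). The strand setting is not given in the sources used here. Gene coordinates equalled GENCODE M21 (GRCm38) for 98.3% of 54409 genes found there.

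Groups came from the labels. Counts were normalized by TMM (normalized CPM). Genes were kept by filterByExpr. The 3 groups were fitted in 1 model with edgeR 4.0.16 (R 4.3.3), with a threshold of 0.05 on Benjamini-Hochberg adjusted p-values. Log2 levels used CPM + 0.5. Correlations used 100000 permutations. Scripts were tested on simulated data. The study's methods give 4 mice a group; p-values measure the spread between these tumors.

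Genes named were the 10 members, Bach1, Mafg, Rxra, the 2 genes of each list with the smallest p among the 3 groups, and the 3 genes most like Nqo1. Values of genes named by their p or by likeness to Nqo1 are descriptions. The members and lists were chosen with earlier results of these data known. Alternatives were RLE size factors, no filter, a minimum of 10 counts per tumor, robust estimation, a replicate block, the 2 groups alone, each tumor left out, DESeq2 1.42.0, and limma 3.58.1 on log2 FPKM (offsets 1 and 0.1, or no filter). A fit of the lists without bexarotene 1 was added after seeing the data. Total counts of 16583413 to 25925027 set the precision of low genes, of which Slc7a11 is the lowest member, and the floor of 3 counts covers counting error only.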

Additional observations from a re-analysis of the deposited data

Results flagged for a closer look

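In 9 of 99 groups of 4 tumors, 1 tumor stood apart from the other 3, as judged by its gap to the nearest tumor over the whole range of the group (Dixon's ratio, at its 95% limit). The ratios were taken on log2(CPM + 0.5), while the levels printed beside them are in CPM. Chance flags about 1 group in 20. Among the members these were Nqo1 in MSU-42011 3 (ratio 0.892, 38.03 CPM against at most 12.7 in the rest of its group), Gclm in control 4 (0.903, 92.2 against at most 76.4 CPM) and Txnrd1 in control 1 (0.901, 144 against at least 155 CPM).

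Rxra stood apart in control 2 (ratio 0.890, 118 CPM) and in MSU-42011 3 (0.912, 126 CPM), the tumors with the highest Nqo1. MSU-42011 3 also stood apart for Abcc4 (0.838, 2.11 CPM) and for Gpr179 (0.898, 2.11 CPM), the latter a gene picked for its likeness to Nqo1. MSU-42011 2 was apart at the low end for Fth1 (0.95, 723 CPM) and Sod3 (0.852, 93.6 CPM).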

How the results depend on the processing

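In no comparison was a member past the adjusted threshold under any alternative. At an unadjusted p under 0.05, Gclc passed with MSU-42011 without control 4 and in limma without the filter. With bexarotene, Gclc passed without control 4, without bexarotene 3 and in limma without the filter. Txnrd1 passed without bexarotene 3, where 1600 of 15777 genes did, and G6pdx passed there and in every limma fit. Nqo1, at an unadjusted p under 0.05 for bexarotene over all tumors, was not so under robust estimation, with the replicate block or in any limma fit. It was also not so without control 1 or 2, without MSU-42011 1, 2 or 4, or without any 1 of the bexarotene tumors. Among the 3 groups Nqo1 passed that threshold without control 3 and without MSU-42011 3. The count of all genes past the threshold, 0 in edgeR over all tumors, became 5 among the 3 groups, 1 with MSU-42011 and 6 with bexarotene relative to control, and 25 between the agonists with DESeq2. With each tumor left out it was 0 to 1 among the 3 groups and 0 to 1 for bexarotene against control, the 1 being without MSU-42011 2 in both. The number of members higher than control was 2 to 6 with MSU-42011 (all tumors 5, 2 without MSU-42011 4) and 3 to 5 with bexarotene (all tumors 3). The labels do not pair tumors by replicate number. Over 12 same-numbered pairs the correlation of deviations was -0.39 to 0.38, with 5 over 0.1, and 5 of 12 tumors were closest to their own number. No chance level was computed for these values, so they do not decide whether tumors were paired. With the replicate block edgeR called 0 genes in every comparison, with 371 genes at an unadjusted p under 0.05 among the 3 groups against 657 without it. Of 99 gene comparisons 63 kept their sign under every alternative, and 87 of 2157 alternative values changed sign, 63 of them with 1 tumor left out; the cause was not tested. Beside those, Bach1 with MSU-42011 went to -0.012 with the replicate block and -0.00082 with the 2 groups alone, and Hmox1 between the agonists to 0.0074 without the filter. On log2(FPKM + 1), with or without the filter, and on log2(FPKM + 0.1), the log2 differences with MSU-42011 were 0.0090 and 0.0094 for Keap1, 0.043 and 0.044 for Sod2, 0.042 and 0.044 for Ift81 and 0.021 and 0.021 for Abhd4, that of Gclm with bexarotene was 0.027 and 0.028, and those between the agonists were 0.0028 and 0.0033 for Gclc and 0.00039 and 0.00093 for Gsr. The lowest and highest log2 fold changes with 1 tumor left out, where the sign changed, follow. For MSU-42011 against control they were -1.26 to 0.29 for Nqo1, -0.50 to 0.24 for Hmox1, -0.0090 to 0.16 for Gclm, -0.063 to 0.11 for Srxn1, -0.24 to 0.37 for Slc7a11, -0.10 to 0.080 for Bach1, -0.32 to 0.066 for Rxra, -0.016 to 0.36 for Gstm2, -0.51 to 0.21 for Gpx3, -0.035 to 0.18 for H6pd, -0.023 to 0.49 for Abcc4, -0.18 to 0.073 for Sod2, -0.091 to 0.054 for Ift81, -0.70 to 0.15 for Gpr179 and -0.17 to 0.061 for Abhd4. For bexarotene against control they were -0.19 to 0.26 for Nfe2l2, -0.46 to 0.19 for Hmox1, -0.082 to 0.077 for Gclm, -0.13 to 0.042 for Srxn1, -0.69 to 0.10 for Slc7a11, -0.12 to 0.42 for Bach1, -0.037 to 0.24 for Gsto1, -0.14 to 0.030 for Pgd and -0.021 to 0.23 for Sod2. For MSU-42011 against bexarotene they were -0.45 to 0.41 for Hmox1, -0.12 to 0.018 for Gclc, -0.00011 to 0.16 for Gclm, -0.00040 to 0.13 for Txnrd1, -0.0094 to 0.14 for Srxn1, -0.031 to 0.88 for Slc7a11, -0.20 to 0.021 for G6pdx, -0.42 to 0.12 for Bach1, -0.039 to 0.40 for Rxra, -0.13 to 0.076 for Gsr and -0.33 to 0.00093 for Trib3. Slc7a11 could not be tested with at least 10 counts in every tumor or with the FPKM filter, nor Abcc4 and Gpr179 with the latter.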
